A study of Rattus norvegicus with 18 samples.

Results

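The 8 genes described here make, salvage or break down pyrimidine nucleotides, or cleave nucleotides outside the cell. They are Cad, Dhodh and Umps of de novo synthesis, Upp1 and Uck2 of salvage, and the cell surface enzymes Entpd1, Enpp3 and Nt5e. They were taken by gene symbol from a table of 30735 genes, and each symbol has 1 row. The genes were chosen by function, with results of these same libraries already known, and the study had listed Upp1, Enpp3 and Nt5e among changed genes of pyrimidine metabolism. Their p-values therefore show the size of a change against the spread between rats and are not independent evidence.

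Cortical RNA was sequenced from 18 adult Sprague Dawley rats aged 8 to 10 weeks, with 6 rats and 6 libraries in each of 3 groups. In the SAH 1d and SAH 7d groups, subarachnoid hemorrhage (SAH) was produced by endovascular perforation with a nylon filament, and cortex was taken at 1 or 7 days. Sham rats had the same surgery without perforation, and the day on which their cortex was taken is not given in the sources used here. The methods name the whole cortex of the operated side, whereas the sample descriptions name both sides and mice, although organism and gene identifiers are of the rat, and the sex is not stated.

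Pyrimidine nucleotides are building blocks of RNA and DNA and carry sugars and lipid head groups in biosynthesis. Cells build them from glutamine, bicarbonate and aspartate, or recycle uridine and cytidine, and the brain is known to rely largely on uridine salvage. Nucleotides released from damaged cells act on P2 receptors until surface enzymes remove their phosphates step by step, which turns ATP into adenosine and UTP into uridine.

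Total counts per library ranged from 27270026 to 38271014. Levels are given as CPM, the read count scaled to the total count of its library after TMM correction for library composition, and levels of different genes are compared only as FPKM, which also divides by transcript length. Changes are log2 fold changes of the edgeR quasi-likelihood test on the 12 libraries of a comparison, with standard error (SE) and with p adjusted by Benjamini-Hochberg over all 18444 genes tested. A gene is said to have changed if its adjusted p is under 0.05, and is a DEG if its log2 fold change is also at least 1 in size. The libraries SAH 1d-3 and SAH 7d-5 stood apart from their groups. Summed over the 5 monocyte and macrophage markers found in the table (Lyz2, Cd68, Mrc1, Cd163 and Ms4a7), SAH 7d-5 had 8731 CPM against at most 281 CPM in the other SAH 7d libraries. SAH 1d-3 had 502 CPM against at most 125 CPM in the other SAH 1d libraries. Lyz2 alone made up 8006 CPM of the sum in SAH 7d-5 and 466 CPM of that in SAH 1d-3. All 5 markers were highest of their group in SAH 7d-5. In SAH 1d-3 only Lyz2 and Cd68 were, and Mrc1, Cd163 and Ms4a7 lay within the range of the other SAH 1d libraries. Because both libraries stood apart, counts and changes are also given without them. Sham-1 also differed from the other sham libraries and was kept in those fits. Its neuron markers summed to 5377 CPM against at least 7201 CPM in the others. Its astrocyte markers summed to 2282 CPM against at most 1511 CPM. In bulk tissue, fewer cells of a type and less RNA per cell cannot be told apart.

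At SAH 1d, Upp1 and Enpp3 rose, and none of the 8 genes fell. Of all tested genes 25.4% changed and 14.9% rose, so 2 of 8 is close to that background. Both were DEGs, as were 6.64% of all genes. The median log2 fold change of the 8 genes was 0.33, against 0.0086 over all genes tested, and 7 of 8 values were above 0. The share of all genes above 0 is not given here. SAH 1d-3 was the highest SAH 1d library for each of the 8 genes. Without that library each of the 8 values was lower, and Uck2 (-0.02) and Dhodh (-0.13) were below 0. Without the libraries that stand apart, Upp1 and Enpp3 were again the genes changed, against a background of 28.5%. At SAH 7d, none of the 8 genes passed the test against sham, and from SAH 1d to SAH 7d only Upp1 did, downward.

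**Figure D1:**
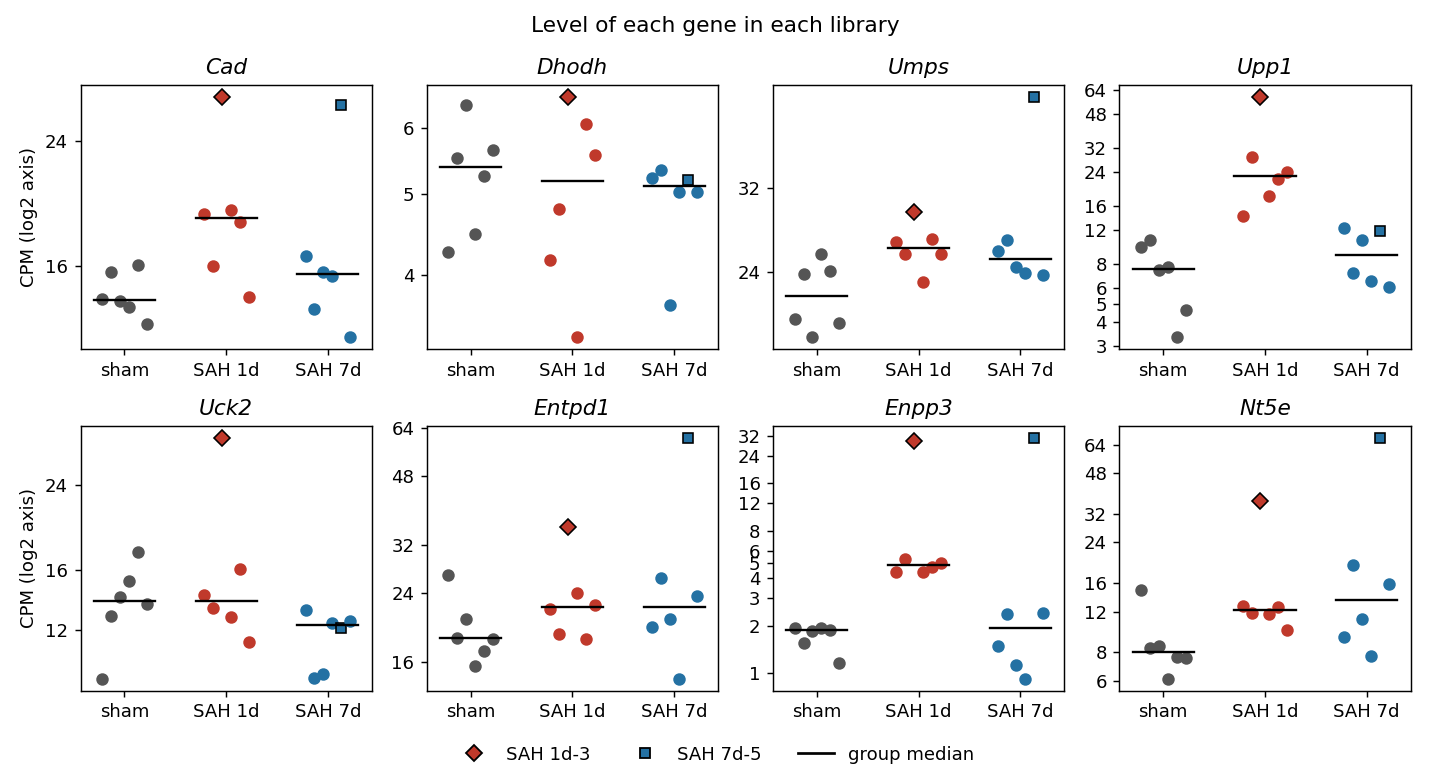
CPM of each gene in each of the 18 libraries, on a log2 axis with its own range in each panel. Points are libraries, bars are group medians, the diamond is SAH 1d-3 and the square is SAH 7d-5. All 6 SAH 1d libraries lie above all sham libraries for Upp1 and Enpp3, and the groups overlap for the other genes.

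Upp1 encodes uridine phosphorylase 1, which splits uridine into uracil and a ribose phosphate. Its level was 3.34, 7.57 and 10.7 CPM (lowest, median and highest library) in the sham group. It was 14.2, 23.0 and 58.7 CPM in the SAH 1d group, and 6.10, 8.90 and 12.3 CPM in the SAH 7d group. Every SAH 1d library was above every sham and every SAH 7d library, whereas sham and SAH 7d overlapped. The highest library was SAH 1d-3, and the next was at 28.8 CPM.

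The increase of Upp1 at SAH 1d was 1.93 ± 0.36 (SE) on the log2 scale, or 3.81-fold (edgeR, adjusted p = 0.00254). Without SAH 1d-3 it was 1.56 ± 0.27 (adjusted p = 0.0011). Groups without any overlap, in the direction of Upp1, were seen for 7.89% of all genes. At SAH 7d the log2 fold change against sham was 0.33 ± 0.29 (edgeR, adjusted p = 0.545), so the SAH 7d level was not separated from sham.

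From SAH 1d to SAH 7d, Upp1 fell by 1.60 ± 0.34 on the log2 scale (edgeR, adjusted p = 0.0375), which makes its SAH 1d level 3.04-fold higher than that of SAH 7d. In this comparison 1.37% of all genes changed, 1.08% fell, and 2.11% had every SAH 7d library below every SAH 1d library. Without SAH 7d-5 and SAH 1d-3 the decrease was 1.33 ± 0.23 in size (adjusted p = 0.00371). The call did not hold in every fit, since leaving out SAH 1d-2, SAH 1d-5, SAH 1d-6 or any SAH 7d library other than SAH 7d-5 moved the adjusted p to between 0.0618 and 0.105, with log2 changes between -1.71 and -1.50. With a block for the replicate number it was 0.130.

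Uck2 encodes the kinase that phosphorylates uridine and cytidine, the step by which salvaged uridine enters the nucleotide pool. Its level was 9.53, 13.8 and 17.4 CPM (lowest, median and highest) in the sham group, 11.3, 13.8 and 29.9 CPM in the SAH 1d group, and 9.56, 12.3 and 13.2 CPM in the SAH 7d group. The groups overlapped and their medians were close. The highest value belonged to SAH 1d-3, and the other SAH 1d libraries reached at most 16.03 CPM. Uck2 was not called in any comparison, with log2 fold changes of 0.25 ± 0.23 at SAH 1d (edgeR, adjusted p = 0.440) and -0.24 ± 0.14 at SAH 7d (adjusted p = 0.411) against sham. From SAH 1d to SAH 7d the value was -0.49 ± 0.22 (adjusted p = 0.332). Without SAH 1d-3 the SAH 1d value was -0.02 ± 0.14, so its direction depended on that library.

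Promoter sequences were found in RefSeq (rat build GRCr8) for 6 of the 8 genes, and not for Dhodh and Umps. Those of 3 genes are shown from 250 bases upstream up to the gene start, 5′ to 3′ on the strand of the gene. Upp1 and Enpp3 are given because they rose at SAH 1d, and Uck2 because it acts on the same nucleoside as Upp1 and was not called. Capitals mark matches to the TATA box and to the GC box, on either strand, both spelled out after the sequences. The first is chr14:88024420-88024669 (+), the next chr1:22382739-22382988 (+) and the last chr13:81971037-81971286 (-).
Upp1: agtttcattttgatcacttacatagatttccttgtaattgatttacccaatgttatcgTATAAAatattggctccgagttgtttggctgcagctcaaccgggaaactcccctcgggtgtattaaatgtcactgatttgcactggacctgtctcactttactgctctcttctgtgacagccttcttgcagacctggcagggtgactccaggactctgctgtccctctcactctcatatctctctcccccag
Enpp3: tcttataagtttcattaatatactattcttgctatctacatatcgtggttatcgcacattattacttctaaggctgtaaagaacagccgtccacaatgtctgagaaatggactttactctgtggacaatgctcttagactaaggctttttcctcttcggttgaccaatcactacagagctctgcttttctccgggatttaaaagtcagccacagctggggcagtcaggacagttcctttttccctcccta
Uck2: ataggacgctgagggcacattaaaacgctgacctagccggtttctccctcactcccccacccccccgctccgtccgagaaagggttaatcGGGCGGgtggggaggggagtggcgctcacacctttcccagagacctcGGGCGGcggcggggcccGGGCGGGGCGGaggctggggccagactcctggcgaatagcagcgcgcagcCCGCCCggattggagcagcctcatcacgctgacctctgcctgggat

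In the Upp1 window the TATA box motif, TATAAA, begins 192 bases before the start, and it was found in 12.9% of the 33469 rat promoter windows of the same length. The Enpp3 window holds none of the motifs searched. The GC box motif, GGGCGG, was found in the windows of Uck2, Cad and Nt5e, and in 30.5% of all windows, with 5 matches in Uck2, of which the pair at 96 and 91 bases before the start shares a base. CACGTG (E-box), TGANTCA (AP-1 motif) and TTCNNNGAA (STAT motif) were in none of the 6 windows, against 5.59%, 6.34% and 7.67% of all windows, each searched on both strands. The share of G and C was 46.0% in Upp1, 41.6% in Enpp3 and 48.8% in Entpd1, below the median of 51.2% over all windows. It was 54.4% in Cad, 68.4% in Uck2 and 68.8% in Nt5e. A match of letters is a description and shows no binding.

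Cad, Dhodh and Umps carry out the de novo pathway. None of them was called in any comparison, and their groups overlapped throughout. Cad is the large cytosolic enzyme of the first steps and is where the pathway is regulated. Its level was 13.2, 14.3 and 16.01 CPM (lowest, median and highest) in the sham group, 14.4, 18.7 and 27.7 CPM in the SAH 1d group, and 12.7, 15.6 and 27.04 CPM in the SAH 7d group. In the SAH 1d group 4 of 6 libraries were above all sham libraries. The highest SAH 1d value was that of SAH 1d-3 and the highest SAH 7d value that of SAH 7d-5. The log2 fold change at SAH 1d was 0.39 ± 0.14, just short of the threshold (edgeR, adjusted p = 0.0527), and 0.25 ± 0.09 without SAH 1d-3 (adjusted p = 0.0599). Leaving out SAH 1d-2 or SAH 1d-6 brought the adjusted p to 0.0446 and 0.0275, and DESeq2 gave 0.038. The values at SAH 7d were 0.21 ± 0.16 against sham and -0.18 ± 0.21 against SAH 1d (adjusted p = 0.495 and 0.737).

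Umps encodes the enzyme that turns orotate into UMP. Its level was 19.2, 22.1 and 25.5 CPM (lowest, median and highest) in the sham group, 23.2, 26.1 and 29.4 CPM in the SAH 1d group, and 23.8, 25.1 and 43.8 CPM in the SAH 7d group. The highest value was that of SAH 7d-5, and the other SAH 7d libraries reached at most 26.8 CPM. The log2 fold change was 0.24 ± 0.09 at SAH 1d (edgeR, adjusted p = 0.0751) and 0.34 ± 0.16 at SAH 7d (adjusted p = 0.319), and 0.10 ± 0.16 from SAH 1d to SAH 7d (adjusted p = 0.811). Without the libraries that stand apart the first of these was 0.20 ± 0.09 and the second 0.18 ± 0.09.

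Dhodh encodes the mitochondrial enzyme that makes orotate and passes electrons to the respiratory chain. Its level was 4.26, 5.39 and 6.40 CPM (lowest, median and highest) in the sham group, 3.36, 5.19 and 6.54 CPM in the SAH 1d group, and 3.68, 5.12 and 5.34 CPM in the SAH 7d group. The groups lay over each other, and none of the 3 log2 fold changes was larger in size than its SE, with -0.05 ± 0.17 at SAH 1d and -0.09 ± 0.14 at SAH 7d against sham (edgeR, adjusted p = 0.872 and 0.715).

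Of the 3 surface enzymes, Enpp3 and Entpd1 cleave nucleotides down to the monophosphate, and Nt5e removes the last phosphate. Enpp3 rose at SAH 1d, and the largest values of Enpp3, Entpd1 and Nt5e in the SAH 1d and SAH 7d groups were those of SAH 1d-3 and SAH 7d-5. This was not particular to them, since SAH 1d-3 was the highest SAH 1d library for the other genes too. SAH 7d-5 was also the highest SAH 7d library for Cad and Umps. Enpp3, also known as CD203c, encodes a phosphodiesterase that cleaves nucleoside triphosphates and is a known surface marker of basophils and mast cells. Its level was 1.16, 1.87 and 1.95 CPM (lowest, median and highest) in the sham group, from 35 to 63 counts per library. It was 4.37, 4.87 and 29.8 CPM in the SAH 1d group and 0.924, 1.93 and 31.0 CPM in the SAH 7d group. All 6 SAH 1d libraries were above all sham libraries, and 5 of them lay between 4.37 and 5.34 CPM. In the SAH 7d group 5 libraries lay between 0.924 and 2.40 CPM, around the sham levels, and SAH 7d-5 alone was at 31.0 CPM.

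The increase of Enpp3 at SAH 1d was 2.38 ± 0.50 on the log2 scale, or 5.22-fold (edgeR, adjusted p = 0.00524). Without SAH 1d-3 it was 1.47 ± 0.16, or 2.77-fold (adjusted p = 3.6e-05), so the change was smaller and its SE smaller too. With all 18 libraries in 1 fit the adjusted p was 0.0612. At SAH 7d the log2 fold change against sham was 1.94 ± 0.84 (adjusted p = 0.303) with SAH 7d-5, and -0.04 ± 0.27 (adjusted p = 0.969) without it. From SAH 1d to SAH 7d it was -0.44 ± 0.92 (adjusted p = 0.873). Without SAH 7d-5 alone this became -2.44 (adjusted p = 0.0286), without SAH 1d-3 alone 0.48 (adjusted p = 0.853), and without both -1.52 ± 0.25 (adjusted p = 0.00287), with every SAH 7d library then below every SAH 1d library. In that last fit 13.6% of all genes changed.

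The 7 mast cell and basophil markers summed to at most 0.463 CPM in the sham group, 0.966 CPM in the SAH 1d group and 1.48 CPM in the SAH 7d group. Of the 7 genes 1 had enough counts to be tested. It was Hdc, the histamine-forming enzyme, which rose at SAH 1d from a median of 0.132 CPM in sham to 0.401 CPM, with overlapping groups (log2 fold change 1.69 ± 0.52, edgeR, adjusted p = 0.0319). The mast cell protease Cpa3 had no count in any SAH library. The part of such cells in the change of Enpp3 was not tested.

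Nt5e, also known as CD73, encodes the enzyme that turns extracellular AMP into adenosine and UMP into uridine. Its level was 6.12, 7.95 and 14.9 CPM (lowest, median and highest) in the sham group, 9.97, 12.2 and 36.4 CPM in the SAH 1d group, and 7.70, 13.5 and 68.4 CPM in the SAH 7d group. Without sham-1, at 14.9 CPM, all SAH 1d libraries would lie above the sham group, but with it the groups overlapped. The highest values were those of SAH 1d-3 and SAH 7d-5, and the next highest were 12.7 and 19.2 CPM. The log2 fold change at SAH 1d was 0.85 ± 0.32 (edgeR, adjusted p = 0.0678), 0.42 ± 0.19 without SAH 1d-3 (adjusted p = 0.120) and 1.07 without sham-1 (adjusted p = 0.0283). At SAH 7d it was 1.32 ± 0.50 against sham (adjusted p = 0.272), and 0.53 ± 0.26 without SAH 7d-5 (adjusted p = 0.432). From SAH 1d to SAH 7d it was 0.47 ± 0.55 (adjusted p = 0.738). Nt5e was thus not called by edgeR on all 12 libraries in any of the 3 comparisons. DESeq2 and limma with voom weights did call it at SAH 1d (adjusted p = 0.0327 and 0.0125). In these tests 30.6% and 35.3% of all genes were called.

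Entpd1, also known as CD39, encodes the enzyme that turns ATP and ADP into AMP and is known from microglia and endothelium. Its level was 15.6, 18.4 and 26.8 CPM (lowest, median and highest) in the sham group, 18.3, 22.1 and 35.6 CPM in the SAH 1d group, and 14.5, 22.1 and 60.2 CPM in the SAH 7d group. The groups overlapped, and the top value was that of SAH 7d-5, followed in its group by 26.3 CPM. The log2 fold change was 0.28 ± 0.17 at SAH 1d (edgeR, adjusted p = 0.255) and 0.50 ± 0.30 at SAH 7d (adjusted p = 0.408). Without the libraries that stand apart both were 0.11, with SEs of 0.13 and 0.16.

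At SAH 7d against sham, edgeR called 0 of the 8 genes and 0.0% of all genes. At an unadjusted p under 0.05 there were 3 of the 8 genes against 15.4% of all genes, and DESeq2 and limma also called none of the 8. DESeq2 gave Enpp3 no adjusted p in any comparison. It called 2.56% of all genes at SAH 7d, so the number of genes called in this comparison depends on the test.

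**Figure D2:**
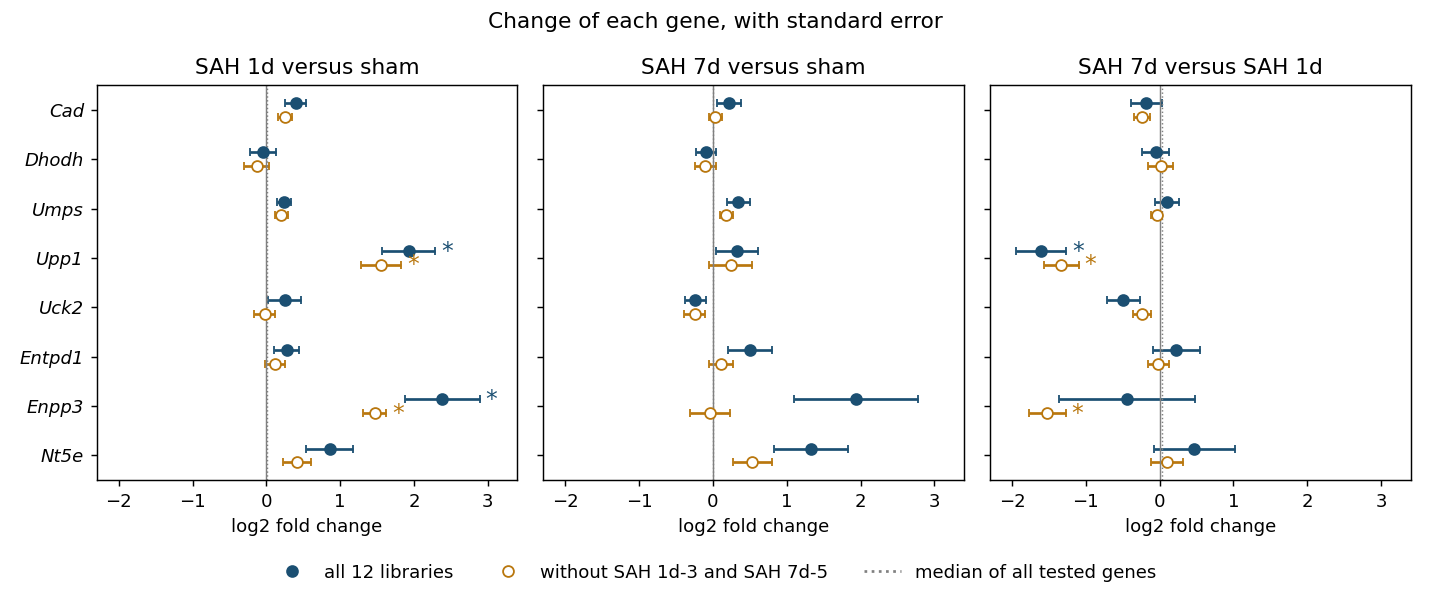
Log2 fold change of each gene in the 3 comparisons, with bars of 1 SE. Filled points are the fits with all 12 libraries, open points the fits that leave out SAH 7d-5 and SAH 1d-3, and asterisks mark an adjusted p under 0.05 over all genes. Enpp3 moves most between the fits, from 1.94 to -0.04 at SAH 7d against sham.

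Per transcript length, Umps had the highest level of the 8 genes in all 3 groups, with median FPKM of 12.2 in sham, 15.7 at SAH 1d and 14.3 at SAH 7d. The order in the sham group was Umps, Uck2, Entpd1, Upp1, Nt5e, Cad, Dhodh and Enpp3, and the order at SAH 7d was the same. Neighbours in the sham order overlapped between libraries apart from Uck2 over Entpd1 and Dhodh over Enpp3. At SAH 1d, Upp1 stood at rank 2 with a median FPKM of 11.3, up from 3.45 in sham, and its range overlapped those of Umps and Uck2. Enpp3 stood at rank 7, with a median FPKM of 1.76 against 0.609 in sham. At SAH 1d the gap between neighbours was Uck2 over Entpd1, and at SAH 7d the gaps were Umps over Uck2 and Cad over Dhodh. The enzyme that splits uridine and the kinase that traps it thus went from separate levels in sham, with FPKM of at most 4.99 for Upp1 and at least 5.79 for Uck2, to overlapping levels at SAH 1d.

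**Figure D3:**
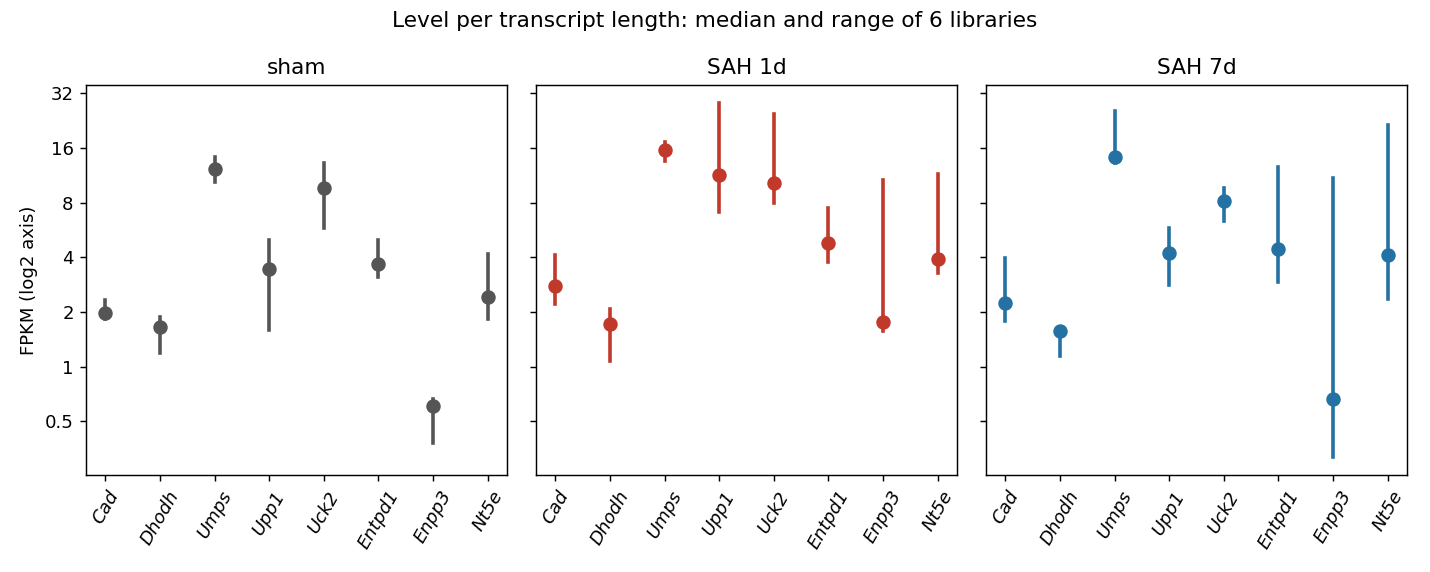
FPKM of the 8 genes in each group on a log2 axis. Points are medians and lines run from the lowest to the highest of 6 libraries. The median of Upp1 is 3.45 in sham, 11.3 at SAH 1d and 4.22 at SAH 7d.

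Markers of infiltrating and resident cells moved with several of these values. At SAH 1d, 3 of 5 tested monocyte and macrophage markers rose, with sums of 50.6 to 92.0 CPM in sham, 85.1 to 502 CPM at SAH 1d and 92.5 to 8731 CPM at SAH 7d. Of the 5 neutrophil markers 3 were tested and 2 rose, with sums of 1.92 to 5.59, 6.69 to 71.1 and 3.11 to 220 CPM in the same groups, and the highest sums were those of SAH 7d-5 and SAH 1d-3. None of the 5 microglia markers changed at SAH 1d, and their sum was 235 to 428 CPM in sham, 309 to 348 CPM at SAH 1d and 301 to 2338 CPM at SAH 7d. Meningeal fibroblast markers summed to 3277 CPM in SAH 7d-5 and to at most 240 CPM in any other library. The sum of the 5 astrocyte markers was 1170 to 2282 CPM in sham and 3512 to 4729 CPM at SAH 1d. Of these markers only Gfap rose, from a median of 340 CPM in sham to 2826 CPM at SAH 1d. Aldh1l1 fell, and Aqp4, Slc1a2 and Gja1 were not called. The 6 neuron markers all fell at SAH 1d. Of the 4 cortical projection neuron markers 2 fell, and their sum was 252 to 367 CPM in sham and 107 to 258 CPM at SAH 1d, so that they were detected in every library. Choroid plexus markers summed to 730 CPM in SAH 1d-4 and 1058 CPM in SAH 1d-6, and to at most 67.8 CPM in any other library. Their part in the changes of the 8 genes was not tested.

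Upp1 and the other genes differed in SAH 7d-5. At 11.9 CPM, Upp1 lay within the range of the other SAH 7d libraries in the library with the highest macrophage marker sum, and so did Uck2 at 12.1 CPM and Dhodh. Enpp3, Nt5e, Entpd1, Cad and Umps were highest there within their group. In each of the 5 SAH 1d libraries with macrophage marker sums of at most 125 CPM, Upp1 and Enpp3 were above all sham libraries. The marker sums of these 5 libraries began at 85.1 CPM, against 50.6 to 92.0 CPM in sham. The part of macrophages in these values was not tested.

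**Figure D4:**
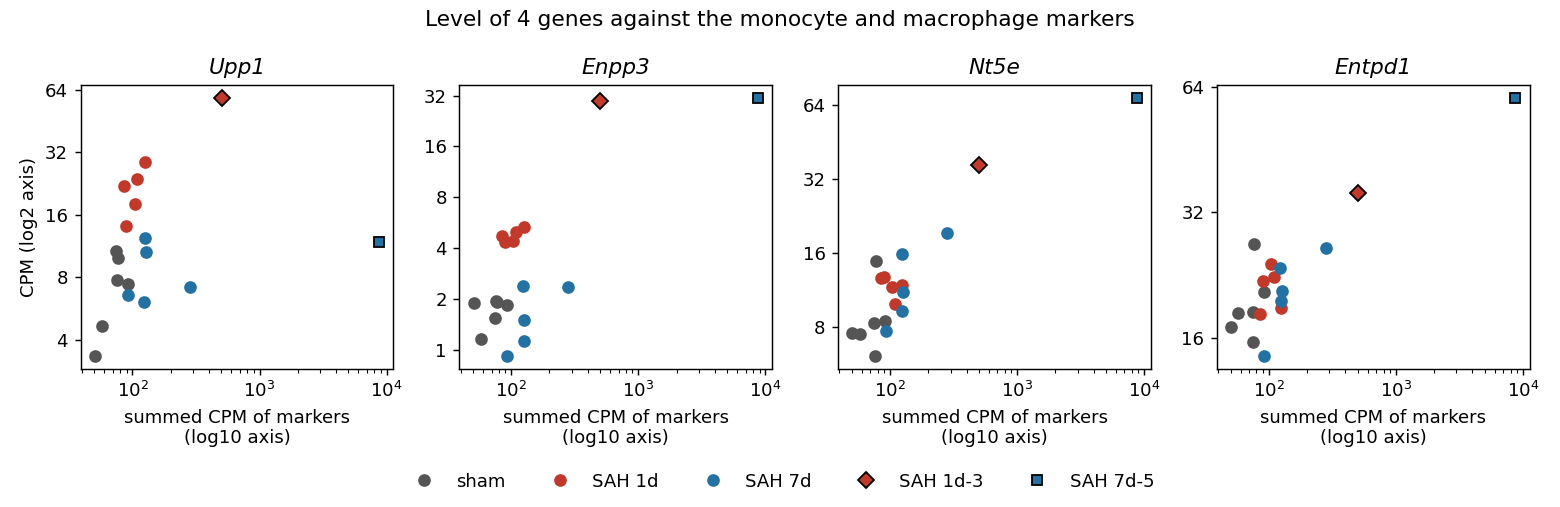
CPM of Upp1, Enpp3, Nt5e and Entpd1 (log2 axis) against the summed CPM of 5 monocyte and macrophage markers (log10 axis) in 18 libraries. Colours are the groups, the diamond is SAH 1d-3 and the square SAH 7d-5. In SAH 7d-5, at 8731 CPM of markers, Enpp3, Nt5e and Entpd1 are at their highest and Upp1 is at 11.9 CPM. Lyz2 makes up 8006 CPM of that marker sum.

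The surrounding pathways were described with 8 lists that hold 74 further genes, with Entpd7 counted as 2 because the table has 2 identifiers for it, and 65 of them were tested. At SAH 1d, 4 of the 65 rose and 4 fell, with a median log2 fold change of -0.0011 against 0.0086 over all genes. Of all genes 14.9% rose and 10.5% fell in this comparison. Without the libraries that stand apart 8 rose and 3 fell, where 28.5% of all genes changed. Of the 9 genes not tested, Upp2, the second uridine phosphorylase, had at most 4 counts in any library, and Cda, which deaminates cytidine, at most 5.

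Of the 5 other genes of de novo synthesis 1 rose. It was Nme2, a nucleoside diphosphate kinase, with a median of 85.2 CPM in sham and 105.8 CPM at SAH 1d and a log2 fold change of 0.28 (edgeR, adjusted p = 0.0354). Of the 7 other tested salvage genes 1 fell. It was Uckl1, a relative of Uck2, with 18.04 to 20.3 CPM in sham and 10.3 to 17.9 CPM at SAH 1d and no overlap between the groups (log2 fold change -0.38, adjusted p = 0.0291). Neither call held in every fit. That of Nme2 was lost in 11 of 23 alternatives, among them leaving out any sham library other than sham-1, or SAH 1d-2, SAH 1d-5 or SAH 1d-6 (adjusted p of at most 0.0705). That of Uckl1 was lost in 10 of 23, among them leaving out sham-3, sham-4, sham-5, sham-6, SAH 1d-1 or SAH 1d-5, and its adjusted p reached 0.156 on log2(FPKM + 1) without a filter.

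Of the 9 genes that supply deoxynucleotides 1 rose. Rrm2, the regulated subunit of ribonucleotide reductase, went from 0.397, 0.661 and 1.13 CPM (lowest, median and highest) in sham to 0.943, 1.65 and 2.55 CPM at SAH 1d (log2 fold change 1.24, edgeR, adjusted p = 0.0154). Proliferation markers were raised in part, and SAH 1d-6, with the highest Rrm2 of its group, had the lowest marker sum of that group. At SAH 1d 3 of the 6 rose, and their sums were 9.74 to 25.2 CPM in sham and 17.2 to 33.1 CPM at SAH 1d. In SAH 7d-5 Rrm2 was at 12.9 CPM and the markers summed to 141 CPM, the highest of any library. Their part in the change of Rrm2 was not tested. The study had listed Rrm2 on these same libraries.

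At SAH 1d none of the 11 tested intracellular nucleotidases was called, and none of the 7 other tested genes listed with the surface enzymes. The same held for the 8 tested transporters and adenosine-removing genes, and for the 1 tested gene of pyrimidine breakdown. By unadjusted p under 0.05 these were 4, 1, 1 and 0 genes, against 38.8% of all genes. The lowest p in each belonged to Nt5c (log2 fold change 0.50), a deoxyribonucleotidase, Ada (0.64), adenosine deaminase, Adk (-0.28), adenosine kinase, and Dpyd (-0.43), the first enzyme of uracil breakdown. The adjusted p values were above 0.05 in the fit of all 12 libraries. That of Nt5c was 0.053, and it passed in 8 of 23 alternatives. Without the libraries that stand apart Nt5c (log2 fold change 0.57, adjusted p = 0.0263) and the transporter gene Slc29a4 (0.58, adjusted p = 0.031) rose. Slc29a4 encodes a membrane transporter of adenosine and monoamines and was named after its values were seen.

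Of the 17 tested receptors for nucleotides and adenosine 2 rose and 3 fell at SAH 1d. P2ry6, the receptor for UDP, rose from 2.41, 3.27 and 5.66 CPM (lowest, median and highest) in sham to 6.88, 8.22 and 8.88 CPM at SAH 1d without overlap (log2 fold change 1.19, edgeR, adjusted p = 0.000838). P2rx1, a channel opened by ATP and named after its values were seen, had a log2 fold change of 0.97 (adjusted p = 0.0177). P2ry12 and P2ry13, ADP receptors of resting microglia, fell by 1.19 and 1.06 on the log2 scale (adjusted p = 0.0251 and 0.0136). Other receptors for the same ligands were not called, with log2 fold changes of -0.15 for P2ry1, an ADP receptor, and -0.03 for P2ry14, which also binds UDP (adjusted p = 0.639 and 0.937).

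P2ry12 was at 12.8, 22.6 and 33.7 CPM (lowest, median and highest) in sham and at 2.23, 11.1 and 13.1 CPM at SAH 1d, with the lowest value in SAH 1d-3. Without that library it fell by 0.98 (adjusted p = 0.00627), and without sham-3 it was not called (adjusted p = 0.0573). At SAH 7d the level was 16.7 to 109.6 CPM. Adora2a, an adenosine receptor that is most abundant in striatum, fell by 1.48 (edgeR, adjusted p = 0.0416). Its sham libraries ranged from 9.85 to 113 CPM and its SAH 1d libraries from 6.37 to 36.4 CPM, and the sum of 4 striatal markers moved with it, at 191 to 727 CPM in sham and 75.7 to 293 CPM at SAH 1d. The part of the striatal RNA in this change was not tested, and leaving out any 1 library other than sham-3, sham-4 or SAH 1d-1 ended the call (adjusted p of 0.0559 to 0.0925).

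At SAH 7d edgeR called 0 of the 65 genes, both against sham and against SAH 1d. At an unadjusted p under 0.05 there were 11 and 12 genes, against 15.4% and 14.7% of all genes. DESeq2 called 3 and 5, against 2.56% and 5.7% of all genes with an adjusted p. Limma with voom weights called 0 and 6, against 0.0108% and 14.7%. Without the libraries that stand apart edgeR called 0 against sham and 6 against SAH 1d, where 13.6% of all genes changed. Of these 6 genes 5 were higher at SAH 7d, among them P2ry12 (log2 fold change 1.46), P2ry13 (0.98) and Adk (0.28). The 1 that was lower was Slc29a4 (-0.71).

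**Figure D5:**
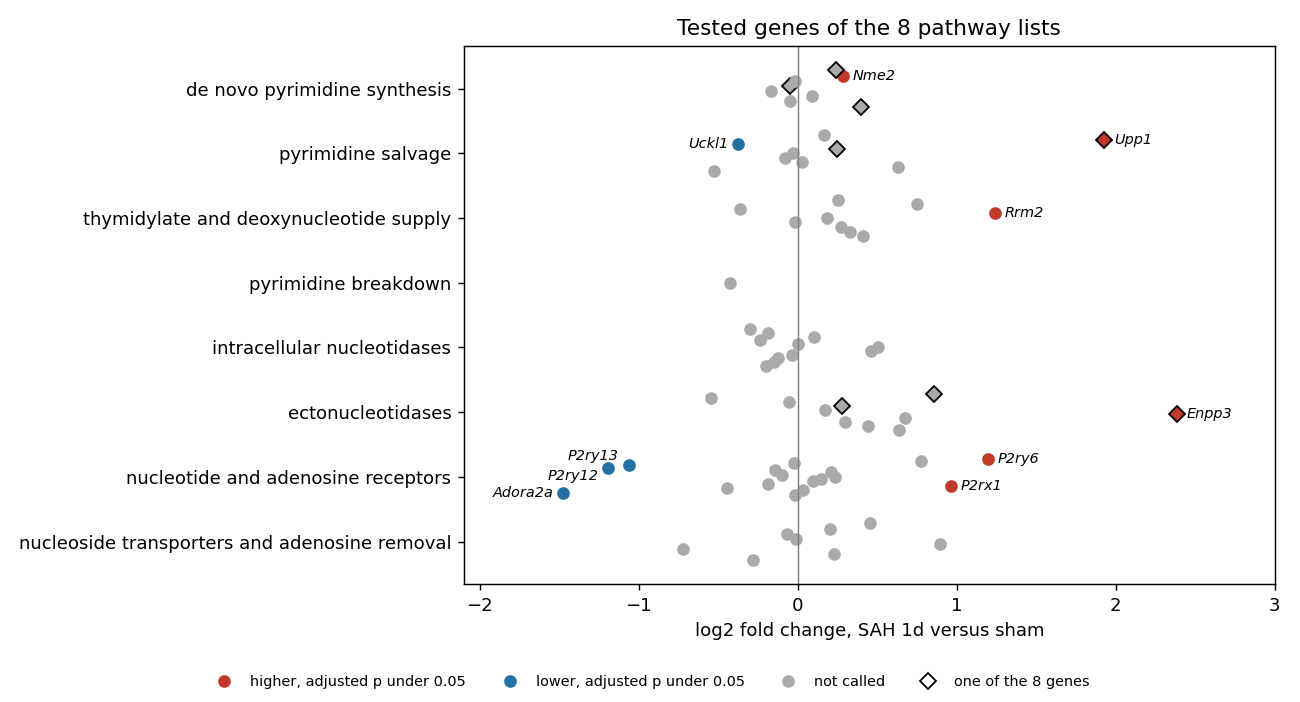
Log2 fold change at SAH 1d against sham for the 73 tested genes of the 8 pathway lists, 1 row per list. Red and blue points passed an adjusted p under 0.05, grey points did not, and diamonds are the 8 genes described first. Enpp3 (2.38) and Upp1 (1.93) have the highest values, and Adora2a (-1.48) the lowest.

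The genes whose levels followed those of Upp1 and Enpp3 most closely were found as those with the smallest root mean square difference of centred log2 CPM over the 18 libraries. For Upp1 they were Tead4 (0.40), Sdcbp2 (0.46) and Sesn2 (0.46), where the profile of Upp1 itself had a root mean square of 0.98. Sesn2, a stress-induced regulator of growth signaling, was at 14.2 to 17.3 CPM in sham, 27.8 to 68.3 CPM at SAH 1d and 13.9 to 30.5 CPM at SAH 7d. For Enpp3 they were A3galt2 (0.33), Plaur (0.35) and Plin2 (0.43), against 1.38 for Enpp3 itself. Plaur, the urokinase receptor, was at 21.0 CPM in SAH 1d-3 and 17.1 CPM in SAH 7d-5, and Plin2, a coat protein of lipid droplets, at 195 and 144 CPM, the highest values of their groups.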

How the data were processed

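RNA was extracted from cerebral cortex, and 1 library per rat was sequenced for 18 rats. The authors deposited, for each gene and library, a whole-number read count that is not normalized and an FPKM value, which they scaled to transcript length and mapped reads. The paper names the Rnor_6.0 genome (release 95), whereas the submitters' processing notes list mm9 with fastp, HISAT2 and DESeq2 1.16.1. The counting program is not given in the sources used here, nor whether read pairs were counted once. Groups and replicate numbers were taken from the sample descriptions, which equal the column names of the tables. The SAH libraries have other codes as titles. No 2 libraries were duplicates, and rows outside the annotation (8685 of 30735) were kept.

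The deposited counts were tested in R 4.3.3 with edgeR 4.0.16, with filterByExpr over all libraries, TMM scaling and the two-sided quasi-likelihood test. Of the 18444 genes tested, 3100 are loci outside the annotation. The SE is the size of the log2 fold change divided by the square root of F. Alternatives were DESeq2 1.42.0, limma 3.58.1 with voom weights and on log2(FPKM + 1) or log2(FPKM + 0.1), other filters and scaling, all 18 libraries in 1 fit, a replicate block, and leaving out libraries. The edgeR, DESeq2, voom and limma fits of each comparison were also run on simulated counts, and the other settings were not. Tables and figures were made with Python 3.11.15, pandas 2.3.3, numpy 2.4.6 and matplotlib 3.10.9.

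The members, pathway lists, marker lists and alternatives were chosen with earlier results of these data known. Named pathway genes are DEGs in at least 1 comparison or, for a list without one, the gene with the lowest p at SAH 1d against sham. P2rx1 and Slc29a4 were added after their values were seen, and 1 gene of the lists is not reported here. For each DEG among the 8 genes the 3 nearest profiles are named. Errors come from the spread between rats. Same-numbered libraries did not vary together (correlations of -0.25 to 0.20), so the replicate numbers were not treated as pairs.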

Additional observations from a re-analysis of the deposited data

Results flagged for a closer look

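For the 20 genes named from the 8 genes and the pathway lists, each group of 6 libraries was searched for a library far from the other 5 on the log2 CPM scale. This gave 12 of 60 groups, 5 of them through SAH 1d-3 and 5 through SAH 7d-5. The cut-off is one that about 1 in 20 groups would pass by chance. The groups are not independent, since they share the same libraries and many genes were named for changes in them. The share over all tested genes is not given here, so the number is a description. SAH 1d-3 stood far from its group for Enpp3 (29.8 CPM), Nt5e (36.4 CPM) and Uck2 (29.9 CPM), where it was high, and for P2ry12 (2.23 CPM) and Adk (44.6 CPM), where it was low. SAH 7d-5 stood far above its group for Enpp3 (31.0 CPM), Umps (43.8 CPM), Cad (27.04 CPM), Ada (16.3 CPM) and Nt5c (6.66 CPM). Sham-1 was high for Nt5e (14.9 CPM), and SAH 7d-3 was low for Dhodh (3.68 CPM).

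The 2 SAH groups differed in Upp1, with a log2 fold change of -1.60 from SAH 1d to SAH 7d (edgeR, adjusted p = 0.0375), which is also the difference between the changes of the 2 groups from sham. All 6 SAH 7d libraries were below all 6 SAH 1d libraries.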

How the results depend on the processing

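The increase of Upp1 at SAH 1d passed the test in all 23 alternatives (adjusted p of 7.2e-07 to 0.00806). That of Enpp3 passed in 21 of 22, with 0.0612 for all 18 libraries in 1 fit, where 1 of the 8 genes, 0 pathway genes and 782 DEGs were called. On log2(FPKM + 1) or log2(FPKM + 0.1), 5 of the 8 genes passed at SAH 1d, with 496 DEGs at a pseudocount of 1. The genes added were Cad, Umps and Nt5e. With no filter at that pseudocount 3 of the 8 genes and 473 DEGs were called. The 8 genes and the pathway genes are counted here by adjusted p alone, so the DEG counts are not their background. The share of all genes that passed by adjusted p in the FPKM fits is not given here. With voom weights 3 of the 8 genes and 15 of the 65 pathway genes passed, where 35.3% of all genes did. DESeq2 called 3 of the 8 genes and 12 pathway genes, where 30.6% of all genes with an adjusted p were called. Leaving out 1 library gave 1008 to 1326 DEGs, 2 to 3 of the 8 genes and 5 to 11 pathway genes, with 5 when sham-3, sham-6 or SAH 1d-5 was left out. At SAH 7d against sham DESeq2 called 370 DEGs and 3 pathway genes, voom 1 DEG, and the fit of all libraries 9 DEGs, and leaving out 1 library gave 0 to 3 DEGs.

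From SAH 1d to SAH 7d the counts depended most on the setting. DEGs numbered 388 with DESeq2, 552 with voom, 289 with all libraries in 1 fit, 79 on log2(FPKM + 1) without a filter, 494 without SAH 7d-5 and SAH 1d-3, and 63 to 453 without 1 library, the highest without SAH 7d-5. Of the pathway genes 5, 6 and 5 changed in the first 3 of these, 6 without both libraries and 0 to 3 without 1 library. Of the 8 genes 2 changed with voom and without both libraries, and 0 to 2 without 1 library. With the replicate block 27 DEGs and 0 of the 8 genes were called, with an adjusted p of 0.130 for Upp1, and 2 of the 8 genes were again called at SAH 1d. The Upp1 decrease had an adjusted p of 0.0739 without SAH 1d-2, 0.0618 with SAH 1d-5 left out, 0.0635 without SAH 1d-6, 0.065 without SAH 7d-1, 0.105 with SAH 7d-2 left out, 0.0744 without SAH 7d-3, 0.0868 without SAH 7d-4 and 0.0954 without SAH 7d-6. The cause was not tested.

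Log2 fold changes that changed direction had adjusted p above 0.05 in the main test. At SAH 1d, Uck2 was -0.046 with voom, -0.023 without both libraries and -0.023 to 0.33 without 1 library. Dhodh was 0.033 on log2(FPKM + 1), 0.044 on log2(FPKM + 0.1) and -0.13 to 0.049 without 1 library. At SAH 7d against sham, Enpp3 was -0.037 with voom, -0.038 without both libraries and -0.038 to 2.16 without 1 library. Nme2 was -0.027, -0.0064 and -0.016 to 0.079 in the same settings, and Adk -0.0010 to 0.11 without 1 library.

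From SAH 1d to SAH 7d, voom gave Umps -0.050, Dhodh 0.0082, Entpd1 -0.058, Rrm2 -1.001, Nt5c -0.31, Ada -0.53, P2ry6 -0.16 and P2rx1 -0.83. Without both libraries Umps was -0.039, Dhodh 0.014, Entpd1 -0.017, Rrm2 -0.84, Nt5c -0.32, Ada -0.47 and P2rx1 -0.65. The block gave Rrm2 -0.52, Ada -0.097 and P2rx1 -0.29. On log2(FPKM + 1) Rrm2 was -0.023 and P2rx1 -0.037, and on log2(FPKM + 0.1) Rrm2 was -0.31, Ada -0.035 and P2rx1 -0.25. Without 1 library the ranges were -0.078 to 0.15 for Umps, -0.14 to 0.037 for Dhodh, -2.44 to 0.48 for Enpp3, -0.18 to 0.39 for Entpd1, -0.34 to 0.91 for Nt5e, -0.92 to 1.06 for Rrm2, -0.26 to 0.56 for Nt5c, -0.59 to 1.07 for Ada and -0.56 to 0.39 for P2rx1.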
